A study of Homo sapiens with 4 samples.

Results

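The genes described here are FLT3 and 9 other receptors through which myeloid cells receive growth factor and cytokine signals: KIT, CSF1R, CSF2RA, CSF2RB, CSF3R, IL3RA, IFNGR1, IL6R and TNFRSF1B. They were chosen by name, and all 10 were found among the 18885 genes listed with values. The cells were MV4-11, an established human acute myeloid leukemia (AML) cell line that carries an internal tandem duplication in FLT3 (FLT3-ITD). RNA-seq was performed on 2 control libraries (NC) and 2 libraries of cells with shRNA knockdown of ANP32B (sh-ANP32B). The labels describe the NC cells as untreated and without an shRNA, whereas the study's methods name an sh-NC control. An effect of lentiviral transduction and puromycin selection therefore cannot be told apart from an effect of the knockdown if the NC cells carried no virus. Both groups are the same cell line, and a single hairpin, marked S3 in the column names, stands for the knockdown. Neither the labels nor the methods say whether the 2 libraries of a group came from separate cultures. The p-values therefore rest on a spread between libraries that may be technical, and the test used shares that spread in part over genes.

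The receptors fall into structural families. FLT3, KIT and CSF1R are class III receptor tyrosine kinases, which dimerize when their ligand binds and phosphorylate each other. FLT3 and KIT mark and sustain blood progenitors, and CSF1R drives the survival of monocytes and macrophages. CSF2RA and IL3RA are the ligand-binding alpha chains for GM-CSF and interleukin-3, and both signal through the shared beta chain CSF2RB. CSF3R is the G-CSF receptor of the granulocyte lineage. These cytokine receptors have no kinase of their own and pass the signal through Janus kinases to STAT factors. IFNGR1 binds interferon gamma, IL6R binds interleukin-6, and TNFRSF1B is the second receptor for tumor necrosis factor. An internal tandem duplication lets FLT3 signal without its ligand.

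Expression was given as TPM, a transcript abundance per gene length scaled to a common total, so that levels can be compared between genes. Read numbers cannot be recovered from TPM. The depth of each library is therefore unknown, and no interval given separates counting error from the rest of the spread between libraries. ANP32B, the targeted gene, had 358 and 364 TPM in NC and 54.1 and 49.3 TPM in sh-ANP32B. Of the 10 markers taken for a myeloid and monocytic leukemia line, all were measured, and their summed level was 1977 and 2002 TPM in NC against 7441 and 7376 TPM in sh-ANP32B. LYZ (lysozyme) made up most of this difference, with 471 and 463 TPM against 5308 and 5260 TPM. Of these markers 5 were called higher and MEIS1 was called lower, so the receptors were measured in cells whose monocytic markers had also moved, and the part of this in the receptor levels was not tested. Of the B cell markers, PAX5 had 3.18 and 3.49 TPM in NC and 2.12 and 1.82 TPM in sh-ANP32B, and CD79A was between 0.087 and 1.54 TPM, and neither was called. Of the T and NK cell markers, CD2 and NCAM1 summed to 49.9 and 50.3 TPM against 61.7 and 60.6 TPM, of which NCAM1 had 49.4 and 49.9 TPM against 58.1 and 56.9 TPM. CD2, at 0.521 and 0.442 TPM in NC and 3.62 and 3.63 TPM in sh-ANP32B, was called higher. It passed the filter on low values only through its sh-ANP32B libraries, which ties its test to its rise. Of the erythroid and megakaryocytic markers, ITGA2B was between 0.042 and 1.30 TPM. The other markers of these lists, and the 4 epithelial markers, are not reported here. In bulk RNA a change in the number of cells that express a receptor and a change in the RNA per cell cannot be told apart.

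After ANP32B knockdown, 6 of the 10 receptors rose: CSF3R, CSF2RB, IL3RA, CSF2RA, TNFRSF1B and IFNGR1. FLT3, KIT, CSF1R and IL6R were not called. A gene was called when limma, fitted on log2(TPM + 1) over 16937 genes, gave a Benjamini-Hochberg adjusted p below 0.05 together with a difference of more than 0.5 on the log2 scale. By this rule 17.9% of all genes tested were called higher and 10.1% were called lower. None of the 10 receptors was called lower by limma, and none was lower at an unadjusted p below 0.05 either. At an unadjusted p, CSF1R also passed the same fold limit as higher. The share of all genes passing by that looser rule is not given here, so this adds no call. The median log2 fold change was 0.56 over the 10 receptors and 0.08 over all genes tested. The libraries of the groups did not overlap for 7 receptors that were higher in sh-ANP32B, a pattern found in 42.5% of all genes tested, and for FLT3, which was lower, a pattern found in 32.1%. IL3RA was below 1 TPM in both NC libraries and passed the filter on low values through its sh-ANP32B libraries, which ties its test to its rise. CSF1R was below 1 TPM in NC library 1, so it also passed the filter through its sh-ANP32B libraries, and the same tie holds for its test. Of the 9 receptors other than IL3RA, 5 were called higher. Without sh-ANP32B library 1, the calls fell to 3, as CSF2RA, IL3RA and IFNGR1 lost theirs.

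**Figure D1:**
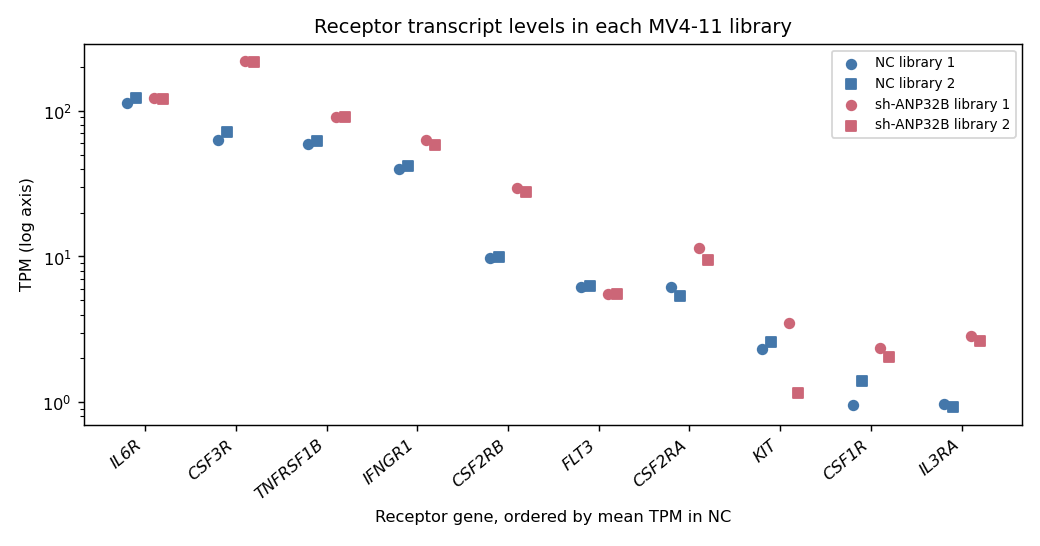
TPM (log axis) of each receptor gene in the 4 MV4-11 libraries, with circles and squares for libraries 1 and 2 of each group, NC in blue and sh-ANP32B in red. CSF3R moved from 62.8 and 71.4 TPM to 218 and 214 TPM, the sh-ANP32B libraries of KIT lay apart at 3.48 and 1.17 TPM, and IL6R ran from 113 to 123 TPM.

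**Figure D2:**
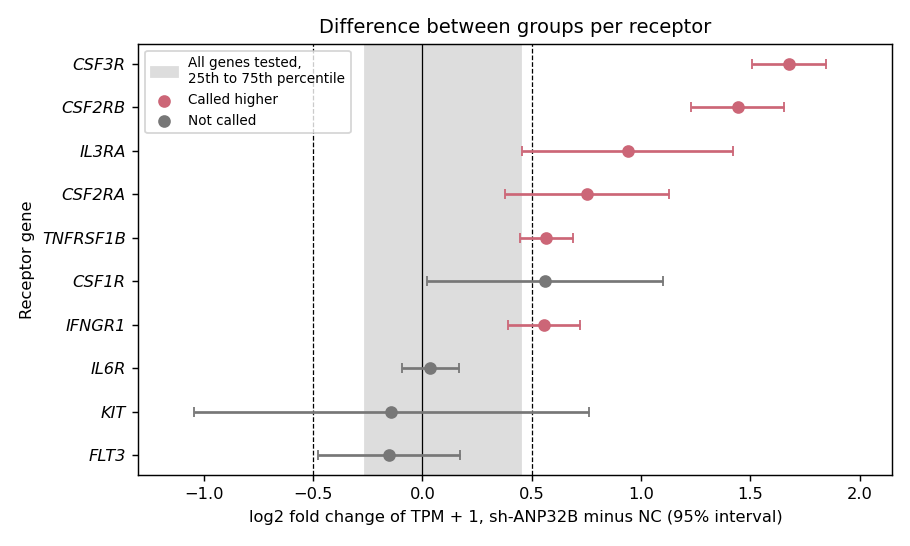
Log2 fold change of each receptor, sh-ANP32B minus NC on the log2(TPM + 1) scale, with the 95% interval from limma as bars, red for genes called higher and grey for genes not called. Dashed lines mark the fold limit of 0.5, and the grey band runs from -0.26 to 0.45, the 25th and 75th percentiles of all genes tested. CSF3R and CSF2RB lie far to the right of the band, and FLT3, KIT and IL6R lie around 0.

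CSF3R (ENSG00000119535, chromosome 1 of hg38 from 36466043 to 36483278, minus strand) showed the largest rise of the 10. It had 62.8 and 71.4 TPM in NC and 218 and 214 TPM in sh-ANP32B. Both knockdown libraries were more than 3 times as high as the lower control. The means were 67.1 ± 6.05 TPM (SD, n = 2) and 216 ± 2.85 TPM (SD, n = 2), a ratio of 3.22. On the log2 scale this was a difference of 1.68 ± 0.068 (SE; limma adjusted p = 1.00e-04), and 1.39% of all genes tested had a higher one. CSF3R thereby passed IL6R as the most abundant of the 10 receptors.

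The beta chain CSF2RB rose together with the alpha chains CSF2RA and IL3RA, the ones among the 10 receptors that use it. CSF2RB (ENSG00000100368, chromosome 22 from 36913628 to 36940439, plus strand) had 9.75 and 9.92 TPM in NC and 29.3 and 27.6 TPM in sh-ANP32B. The ratio of the means was 2.89, and the log2 fold change 1.44 ± 0.085 (SE; limma adjusted p = 2.16e-04). This was nearly as large as the rise of CSF3R, and the spread within either group was small beside it. The annotation names 1 pseudogene of CSF2RB, with which its reads could have been mixed. It also names 1 of IL6R and 3 of ANP32B, to which the same applies.

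CSF2RA (ENSG00000198223, chromosome X from 1268800 to 1310381, plus strand) had 6.21 and 5.35 TPM in NC and 11.5 and 9.41 TPM in sh-ANP32B. Its replicates spread more than those of CSF2RB, and the groups did not overlap. The ratio of the means was 1.81 and the log2 fold change 0.75 ± 0.150 (SE; limma adjusted p = 0.0107). IL3RA (ENSG00000185291, chromosome X from 1336616 to 1382689, plus strand), the scarcest receptor in the control cells, had 0.975 and 0.923 TPM in NC and 2.85 and 2.62 TPM in sh-ANP32B. The ratio of the means was 2.88. The difference was 0.94 ± 0.194 (SE; limma adjusted p = 0.0121) on the log2(TPM + 1) scale, which understates the change of a gene near 1 TPM. With a pseudocount of 0.1 in place of 1 it was 1.43. CSF2RA lost its call in limma without sh-ANP32B library 1 (adjusted p = 0.0504). IL3RA lost its call in limma without that library (adjusted p = 0.0548) and also without NC library 2 (adjusted p = 0.0509). Both genes lie in the pseudoautosomal region, where GENCODE 44 also gives each a copy on the Y chromosome. The X and Y copies share their sequence, and how the authors' counting treated reads from them is not given in the sources used here. Of the other coding genes of this region, 11 were listed, with means over all libraries from 2.37 to 142 TPM. These means hide a wide gap between replicates for CD99, the widest among the 11. It had 34.2 and 38.1 TPM in NC and 10.2 and 41.3 TPM in sh-ANP32B. Whether this bears on CSF2RA and IL3RA was not tested.

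FLT3 (ENSG00000122025, chromosome 13 from 28003274 to 28100592, minus strand) had 6.20 and 6.30 TPM in NC and 5.52 and 5.53 TPM in sh-ANP32B. The knockdown libraries were both lower, by 11.6% in the mean, and each group was tight. This was -0.15 ± 0.130 on the log2 scale (SE; limma adjusted p = 0.383), with a 95% interval from -0.48 to 0.17. A change of the size seen for CSF2RB or CSF3R lies outside this interval. Its width comes in part from other genes of like level, since limma shares the variance over genes. Without a variance trend, limma gave FLT3 an adjusted p of 0.141. In the control cells 43.2% of all genes listed had a lower level than FLT3. FLT3LG, which encodes the ligand of FLT3, had 1.30 and 2.48 TPM in NC and 0.937 and 1.63 TPM in sh-ANP32B, with overlapping groups and adjusted p = 0.410 in limma.

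KIT (ENSG00000157404, chromosome 4 from 54657267 to 54740783, plus strand), the receptor for stem cell factor, had 2.30 and 2.57 TPM in NC and 3.48 and 1.17 TPM in sh-ANP32B. The knockdown libraries lay on either side of the controls. The log2 fold change was -0.14 with a 95% interval from -1.05 to 0.76 (adjusted p = 0.777 from limma), so that neither a rise nor a fall could be told. Its sign depended on a single library, with 0.38 without sh-ANP32B library 2 and -0.67 without sh-ANP32B library 1.

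CSF1R (ENSG00000182578, chromosome 5 from 150053291 to 150113372, minus strand) had 0.960 and 1.39 TPM in NC and 2.36 and 2.04 TPM in sh-ANP32B. Both knockdown libraries were above both controls, with a ratio of the means of 1.87. Its log2 fold change of 0.56 ± 0.216 (SE) passed the fold limit with an unadjusted p of 0.0436 but missed the threshold after adjustment, at 0.0828 in limma. CSF1R was called only with limma run without a trend of the variance on the expression level, at adjusted p = 0.0436. It passed the filter on low values through its sh-ANP32B libraries, which ties these tests to its rise.

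Of the receptors for inflammatory cytokines, IFNGR1 and TNFRSF1B rose by similar amounts and IL6R was not called. IFNGR1 (ENSG00000027697, chromosome 6 from 137197483 to 137219449, minus strand) had 39.8 and 41.8 TPM in NC and 63.1 and 57.9 TPM in sh-ANP32B. This was a ratio of the means of 1.48, or 0.56 ± 0.066 on the log2 scale (SE; limma adjusted p = 0.00174). TNFRSF1B (ENSG00000028137, chromosome 1 from 12166991 to 12209228, plus strand) had 59.3 and 61.8 TPM in NC and 90.2 and 90.0 TPM in sh-ANP32B. Its ratio was 1.49 and its log2 fold change 0.57 ± 0.049 (SE; limma adjusted p = 5.80e-04). TNFRSF1B shares 48 exonic bases with the microRNA gene MIR7846 on the same strand, and the exons of the other 9 receptors overlap no other gene in GENCODE 44. Both log2 fold changes lie just beyond the limit of 0.5. With median-of-ratios scaling they were 0.46 for IFNGR1 and 0.47 for TNFRSF1B, still with an adjusted p of 0.00321 and 9.39e-04 in limma but inside the fold limit. Without sh-ANP32B library 1 IFNGR1 had 0.495, also inside it.

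IL6R (ENSG00000160712, chromosome 1 from 154405193 to 154469450, plus strand) had 113 and 123 TPM in NC and 121 and 121 TPM in sh-ANP32B. The knockdown libraries fell between the controls. Its log2 fold change of 0.04 had a 95% interval from -0.10 to 0.17 (adjusted p = 0.610 from limma), which leaves room only for changes well inside the fold limit. The sign was negative with median-of-ratios scaling (-0.060) and without NC library 1 (-0.021).

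The order of the receptors by level was largely kept. In NC it ran from IL6R (mean 118 TPM) through CSF3R, TNFRSF1B, IFNGR1, CSF2RB, FLT3, CSF2RA, KIT and CSF1R to IL3RA (0.949 TPM). FLT3 and CSF2RA were not separated there beyond the spread of their libraries, nor were CSF1R and IL3RA. In sh-ANP32B the order was CSF3R (216 TPM), IL6R, TNFRSF1B, IFNGR1, CSF2RB, CSF2RA, FLT3, IL3RA, KIT and CSF1R (2.20 TPM). The libraries of KIT there overlapped those of IL3RA and of CSF1R, while both IL3RA libraries lay above both CSF1R libraries. The summed TPM of the 10 receptors were 302 and 324 in NC and 548 and 531 in sh-ANP32B. CSF3R made up 20.8% and 22.0% of this sum in NC and 39.8% and 40.3% in sh-ANP32B. The share of IL6R went from 37.6% and 37.9% to 22.2% and 22.7%, and that of FLT3 from 2.06% and 1.94% to 1.01% and 1.04%.

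Receptors that signal as complexes were compared by the ratio of their TPM within each library. These ratios are descriptions, since an exact permutation test of 2 libraries against 2 cannot give a two-sided p below 0.333. CSF2RB exceeded CSF2RA 1.57 and 1.85 times in NC and 2.55 and 2.94 times in sh-ANP32B, so that the beta chain gained on this alpha chain. The ratio of CSF2RB to IL3RA was 9.996 and 10.8 in NC and 10.3 and 10.5 in sh-ANP32B, with overlapping groups. The ratio of CSF2RA to IL3RA went down from 6.37 and 5.80 to 4.03 and 3.59.

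The partner chains of the other receptors gave a mixed picture. IL6ST (gp130), the signaling chain of the interleukin-6 receptor, rose from 3.47 and 3.79 TPM to 7.75 and 7.54 TPM (log2 fold change 0.90, adjusted p = 0.00429 from limma). The ratio of IL6R to IL6ST went from 32.7 and 32.4 to 15.7 and 16.0. IFNGR2, the second chain of the interferon gamma receptor, had 32.8 and 33.2 TPM in NC and 39.1 and 41.3 TPM in sh-ANP32B, a log2 fold change of 0.28 that was inside the fold limit. The ratio of IFNGR1 to IFNGR2 was 1.21 and 1.26 in NC and 1.62 and 1.40 in sh-ANP32B. TNFRSF1A, the other receptor for tumor necrosis factor, had 127 and 119 TPM in the controls and 160 and 165 TPM after knockdown, which was 0.40 on the log2 scale and inside the limit. TNFRSF1B stood to TNFRSF1A as 0.469 and 0.518 in NC and as 0.565 and 0.544 in sh-ANP32B.

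**Figure D3:**
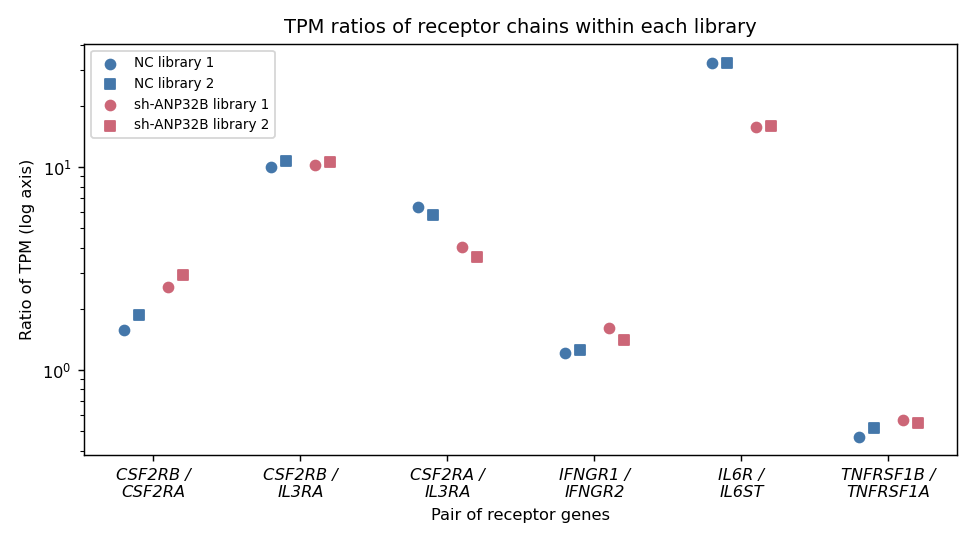
Ratios of TPM between receptor chains (log axis) within each of the 4 libraries, NC in blue and sh-ANP32B in red. The ratio of CSF2RB to CSF2RA is higher in both sh-ANP32B libraries, that of CSF2RB to IL3RA overlaps between the groups, and that of IL6R to IL6ST is 15.7 and 16.0 against 32.7 and 32.4 in NC.

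As several receptors rose together, the 250 bases before their RefSeq start sites (GRCh38.p14) were searched for the core sequence GAGGAA, which the myeloid factor PU.1 can bind, for the C/EBP pattern TTGCNNAA and for the STAT pattern TTCNNNGAA, on both strands. RefSeq gave 12 start sites for 9 of the receptors, and CSF2RB was not among them. GAGGAA was found before 6 of the 12 start sites, in 6 genes, against 23.6% of 34961 start sites of all genes. The C/EBP pattern was found before 3 of the 12 (9.04% of all) and the STAT pattern before 1, that of IL3RA (6.57% of all). GAGGAA was found before CSF3R, CSF2RA and IFNGR1, which were called higher, and before FLT3, CSF1R and IL6R, which were not. It was not found before IL3RA, TNFRSF1B, KIT or the other start sites of CSF1R and IFNGR1. The C/EBP pattern was found before CSF3R, IL3RA and IFNGR1. Whether any of these patterns goes with the rise was not tested. The windows below show the GAGGAA matches, with 12 bases on each side, 5′ to 3′ on the strand of the gene. Capitals mark GAGGAA or its reverse complement TTCCTC.
CSF3R, 111 bases before the start site, chr1:36483007-36483036, minus strand: gctccttcctggGAGGAAggggctgcctgt
CSF2RA, 63 bases before, chrX:1268739-1268768, plus strand: atcctatgaaatGAGGAAgcaggggaggga
CSF2RA, 20 bases before, chrX:1268782-1268811, plus strand: tatgatgacacaGAGGAActctgaagggag
CSF1R, 20 bases before the start site within the gene, chr5:150086557-150086586, minus strand: cagcccaaggagGAGGAAGAGGAAaacaag
IFNGR1, 184 bases before, chr6:137219552-137219581, minus strand: tttgcactcaaaTTCCTCccacacccagaa
IL6R, 172 bases before, chr1:154405159-154405188, plus strand: caacagaaccggGAGGAAgggctctggtgg
IL6R, 6 bases before, chr1:154405325-154405354, plus strand: ctccagcgcgagTTCCTCaaatgttttcct
FLT3, 87 bases before, chr13:28100646-28100675, minus strand: ctggggagagggTTCCTCcccccttccact
The CSF1R window holds 2 adjoining matches. By the gene positions given above, the CSF3R window and the IL6R window 6 bases before its start site also lie within the gene. Before the other CSF3R start site, which lies upstream, GAGGAA was not found. A match describes the letters of the reference genome and does not show that a factor was bound in these cells.

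Downstream of the receptors, Janus kinase and STAT genes were mostly higher. All 10 genes of this list were tested, 6 were called higher and none lower, with a median log2 fold change of 0.54 against 0.08 over all genes. Over all genes tested, 17.9% were called higher and 10.1% lower. STAT2, which acts in interferon signaling, had the largest, 1.24 (47.1 and 50.4 TPM in NC, 122 and 111 TPM in sh-ANP32B). STAT3, used by the G-CSF and interleukin-6 receptors, rose from 31.4 and 36.5 TPM to 63.4 and 62.4 TPM, and STAT6, used by the interleukin-4 receptor, from 90.4 and 96.0 TPM to 165 and 165 TPM. JAK2, the kinase bound by the shared beta chain, had a log2 fold change of 0.59, and TYK2 one of 0.65. STAT5A, a main effector of FLT3-ITD, was at the limit with 0.50, and STAT5B was not called at 0.08.

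The other hematopoietic cytokine receptors included 15 tested genes, of which 7 were called higher and none lower, with a median log2 fold change of 0.46. The shares over all genes tested were 17.9% higher and 10.1% lower. IL21R had the largest log2 fold change, 1.45, from 0.557 and 0.543 TPM to 3.35 and 3.101 TPM, and like IL3RA it passed the filter through its sh-ANP32B libraries. IL13RA1 (1.12) and IL10RA (1.11) followed, with 1.01 for IL17RA and 1.00 for TGFBR2. The smallest among those called were IL4R with 0.78 and IL10RB with 0.57. IL2RG, the common gamma chain, went the other way, from 269 and 234 TPM to 173 and 187 TPM, with a log2 fold change of -0.48 inside the limit. OSMR was listed at low values and not tested.

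Among 18 adaptors and signaling enzymes, 5 were called higher and TRAF2 was called lower, and the median log2 fold change was 0.23. Of all genes tested, 17.9% were called higher and 10.1% lower, so such small counts say little about this list. FES (0.85), a tyrosine kinase of myeloid cells, and PIK3R5 (0.75), a regulatory subunit of PI3-kinase gamma, had the largest log2 fold changes, with 0.55 for its catalytic partner PIK3CG. TRADD at 0.50 and TRAF2 at -0.50, both adaptors of tumor necrosis factor receptors, lay at the limit, and TRAF2 had 28.2 and 29.7 TPM in NC and 18.6 and 21.8 TPM in sh-ANP32B. The general adaptor GRB2 had a log2 fold change of 0.20, and NRAS was not called. Of 12 negative regulators and sheddases tested, 4 were called higher and none lower, with a median of 0.37 on the log2 scale. The 4 were the phosphatase PTPN6 (0.66), the sheddase ADAM17 (0.58), which releases IL6R, CSF1R and TNFRSF1B from the cell surface, the ubiquitin ligase CBLB (0.54) and the adaptor SH2B3 (0.52).

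Over these lists, 23 of 59 tested genes were called higher and 1 was called lower, with a median log2 fold change of 0.33. Beside this, 17.9% of all genes tested were called higher and 10.1% lower, and no test of the lists as sets was run. With median-of-ratios scaling 15 were called higher, beside 2430 of 16937 over all genes, so that the count depended on how the libraries were scaled. Of the other ligands (KITLG, CSF1, IL34, CSF2, CSF3, IL3, IFNG, IL6, TNF and LTA) and of IL5RA, PDGFRA and PDGFRB, none was analysed here.

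**Figure D4:**
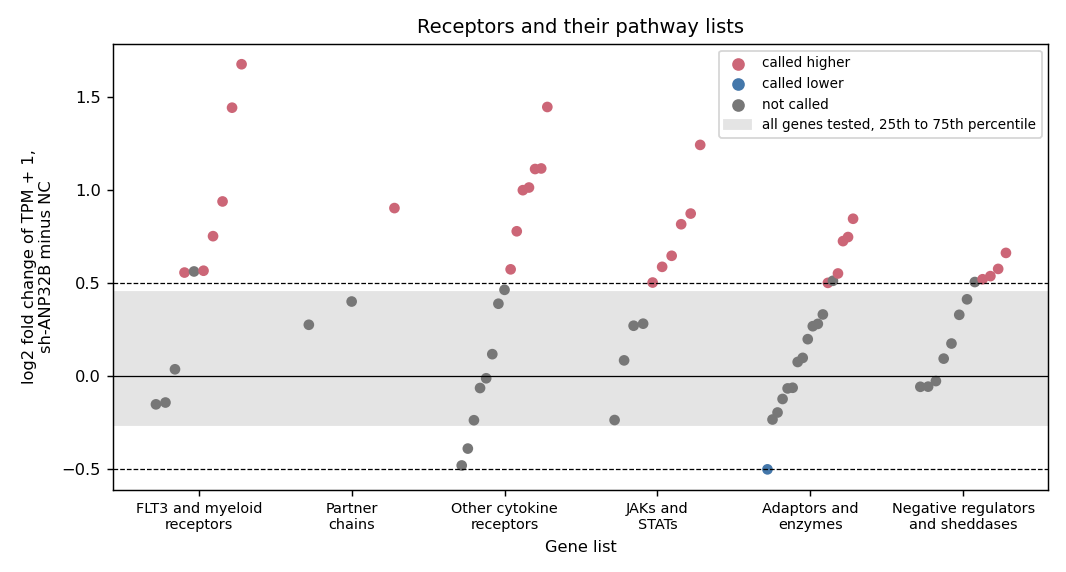
Log2 fold changes, sh-ANP32B minus NC on the log2(TPM + 1) scale, of the 10 receptors and of the tested genes of 5 pathway lists, 1 point per gene, red for called higher, blue for called lower and grey for not called. Dashed lines mark the fold limit of 0.5 and the band the range between the 25th and 75th percentiles of all genes tested. Points beyond the upper limit occur in every list, and TRAF2 is the blue point at -0.50.

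The genes whose values over the 4 libraries were most like those of FLT3 were BCLAF1P2, DUSP4 and TXNDC16. Likeness was the Euclidean distance between log2(TPM + 1) values, each centered on its own mean, among 2993 genes within a factor of 2 of the mean TPM of FLT3. The distances were 0.0188, 0.0410 and 0.0430. For CSF1R the nearest of 2452 genes were TMEM45A and MOB3B, at 0.0497 and 0.0586. Over 4 libraries in 2 groups, genes with a like difference between the groups lie close by this measure.

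**Figure D5:**
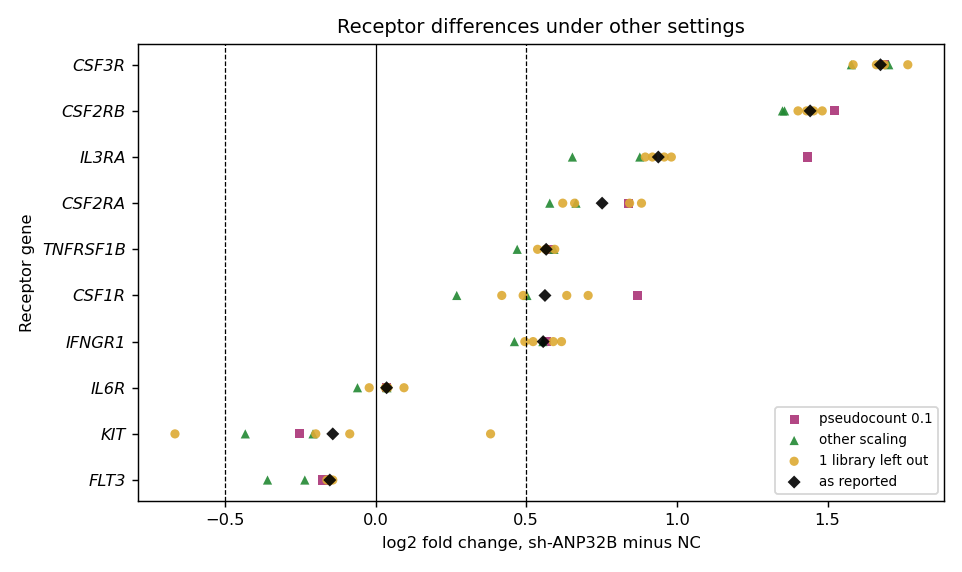
Log2 fold change of each receptor as reported (black diamond), with 1 library left out (yellow), under another scaling (green) and with a pseudocount of 0.1 (purple), with dashed lines at the fold limit of 0.5. CSF3R and CSF2RB stay beyond 1.35 in these settings, IFNGR1 and TNFRSF1B sit at the limit, and KIT runs from -0.67 to 0.38.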

How the data were processed

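RNA-seq of MV4-11 cells was aligned to hg38 with HISAT2 (2.0.5), and the authors deposited a TPM for every gene in each library. This unit was inferred from the values, whose totals lie between 997271 and 998546. The quantifier, the annotation and the use of strand are not given in the sources used here. The depth is unknown, and the lowest mean level listed is 0.500 TPM. Gene identifiers were matched to GENCODE 44 symbols, and 14961 of 18885 had a named symbol.

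Columns named S3 were taken as sh-ANP32B, since NC names the other group. The 16937 genes that reached 1 TPM in 2 or more libraries were fitted with limma 3.58.1 (R 4.3.3; lmFit, eBayes with trend) on log2(TPM + 1), without a block, and p-values were adjusted by Benjamini-Hochberg over all of them. The fold limit of 0.5 is that of the study, whose DESeq2 test needs counts and was not run. The script was tested on simulated data. Plots were made with Python 3.11.15 and matplotlib 3.10.9.

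The members, lists and tests were chosen with earlier results of these data known. All 10 receptors and all partner chains measured were named. Of the other pathway lists, up to 3 called genes with the highest and 3 with the lowest fold change were named, and IL17RA, IL2RG, OSMR, STAT5B, GRB2, NRAS and the markers named beside the receptors were added after their values were seen. A few genes that these rules name are not reported here. Alternatives were the replicate block, other filters, scalings, call rules and a pseudocount of 0.1, no variance trend, and each library left out.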

Additional observations from a re-analysis of the deposited data

How the results depend on the processing

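FLT3, CSF2RB and CSF3R kept their direction and their side of the call under all 11 alternative fits, with log2 fold changes from -0.36 to -0.14, from 1.35 to 1.52 and from 1.58 to 1.77. The number of receptors called higher was 2 with a fold limit of 1 and ranged from 3 to 6 with a library left out, lowest without sh-ANP32B library 1. The number was 4 with median-of-ratios scaling and 7 without a variance trend. In these 2 settings 2430 and 2994 of all 16937 genes tested were called higher, against 3024 as reported. No receptor was called lower under any alternative. The pathway genes called higher numbered 15 with median-of-ratios scaling and 5 with a fold limit of 1, and 19 to 23 with a library left out. Those called lower, 1 as reported, numbered 2 under quantile normalization, 2 under median-of-ratios scaling, 0 with a fold limit of 1, 3 without any fold limit, and 0 to 2 with a library left out. Signs turned for KIT, which ranged from -0.67 to 0.38 with a library left out (positive without sh-ANP32B library 2), and for IL6R, which was -0.060 with median-of-ratios scaling and ranged from -0.021 to 0.094 with a library left out (negative without NC library 1). The cause was not tested. Quantile normalization moved the median of all genes by -0.12 on the log2 scale and the share of lower genes among all calls from 36.1% to 50.2% (48.9% with median-of-ratios scaling). Under it FLT3 was at -0.36 (adjusted p = 0.0643 from limma). Deviations of same-numbered libraries had a correlation of -0.0232 over 16937 genes. Whether a shared number marks a shared culture or day is not given, and with 2 libraries a group this correlation cannot decide it. With the replicate number as a block, 6 receptors were called higher and 0 lower, and 23 and 1 of the pathway genes. CSF1R and IL3RA could not be tested with at least 1 TPM required in every library. Precision is limited by 2 libraries a group, and low receptors such as CSF1R, IL3RA and KIT had the widest intervals.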
